A study of Homo sapiens with 6 samples.

Results

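The regions described here are the promoter KDM3B regions of HCT116 colorectal cancer cells that had no counterpart after KDM3A/B depletion and beside which no H3K9me2 was called. They were chosen by measured values, in 3 steps. A KDM3B region of the control cells had to overlap no KDM3B region of the depleted cells by even 1 bp, its centre had to lie within 1 kb of the transcription start site (TSS) of a protein-coding transcript, and no H3K9me2 region of the depleted cells could lie within 1 kb of either edge. Of the 17638 KDM3B regions in control cells, 3067 met all 3 conditions. They covered 580400 bases, and 3279 protein-coding genes had at least 1 of them within 1 kb of a TSS. With the control list cut to the 8046 regions with the highest scores, the length of the list of depleted cells, 1252 regions met the conditions.

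The study asked where KDM3B binds and where H3K9me2 accumulates when both KDM3A and KDM3B are depleted, with Wnt target promoters as its main interest. HCT116 cells carried either a scramble shRNA (HCT116/Scrsh, the control) or a single shRNA sequence aimed at KDM3A and KDM3B together (HCT116/ABsh-1), both populations being grown for 2 days in DMEM with 10% FBS. The labels speak of an siRNA treatment where the paper speaks of shRNA. KDM3B and H3K9me2 were each profiled by ChIP-seq in 1 library per cell population, so there were no replicates, nothing here was tested between HCT116/Scrsh and HCT116/ABsh-1, and a single shRNA stands for the depletion.

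The deposited lists held 17638 and 8046 KDM3B regions in HCT116/Scrsh and HCT116/ABsh-1, and 11645 and 88855 H3K9me2 regions. They give neither read numbers nor library depth, so absence from a list means only that no call was made in that library. Lists of bound regions hold no expression, so neither the cell line nor the depletion of KDM3A and KDM3B could be checked from them. All percentages below carry Wilson 95% intervals for counting error alone, and regions close to each other are not independent counts.

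H3K9me2 is a histone mark of silent chromatin, laid down mainly by the methyltransferases EHMT1 and EHMT2 and removed by the KDM3 family of Jumonji-domain demethylases (KDM3A, KDM3B and JMJD1C). The demethylases of this family act as coactivators of transcription. Active promoters are usually poor in H3K9me2, and most of them lie in CpG islands, stretches of DNA rich in unmethylated CpG.

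Sequences of 4 members are printed first, as examples and not as a fair sample of the DNA that carried members. Members of similar score that are left out include PAXBP1 (88), with a GA repeat and no match to the motifs below. SLC52A3 (82), with 3 CpGs in its 300 bp, is also left out. The 4 members shown here have high scores, lie 300 bp or less in width and touch no annotated UTR. All are the plus strand of hg19, with capitals at matches to 11 searched motifs, namely CCAAT (NF-Y box), GGGCGG (the GC box), TATAAA (the TATA box), CACGTG (E-box of MYC), TGACGTCA (cAMP response element), TGAGTCA (AP-1 site), CCGGAAG (ETS site), CTTTGAT (TCF/LEF site), GCGCATGC (NRF1 site), CANNTG (any E-box) and ACTACAA (part of the ZNF143 site, added after the sequences were seen), on either strand. UTP3, a factor of ribosomal RNA processing, had a member of score 121 upstream of its TSS (chr4:71553901-71554200). AP3D1, a subunit of the AP-3 vesicle adaptor, had one of score 109 upstream (chr19:2151701-2152000). ACTR1A, the actin-related protein of dynactin, had one of score 88 upstream (chr10:104262601-104262900). USP5, a deubiquitinase, had one of score 77 downstream of its TSS (chr12:6961601-6961900), with a KDM3B region of HCT116/ABsh-1 in the directly adjoining window.
UTP3: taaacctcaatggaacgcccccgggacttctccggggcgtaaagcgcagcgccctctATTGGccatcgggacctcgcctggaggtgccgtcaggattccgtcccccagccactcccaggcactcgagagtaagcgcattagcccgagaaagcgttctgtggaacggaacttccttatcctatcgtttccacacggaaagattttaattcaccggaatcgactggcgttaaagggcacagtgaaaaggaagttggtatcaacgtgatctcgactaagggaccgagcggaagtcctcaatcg
AP3D1: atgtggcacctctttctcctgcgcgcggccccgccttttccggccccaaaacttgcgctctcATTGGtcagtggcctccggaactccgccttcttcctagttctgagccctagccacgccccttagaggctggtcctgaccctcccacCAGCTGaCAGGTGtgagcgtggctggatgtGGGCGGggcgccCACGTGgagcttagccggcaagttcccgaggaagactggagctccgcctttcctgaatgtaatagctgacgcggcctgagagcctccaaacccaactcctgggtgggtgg
ACTR1A: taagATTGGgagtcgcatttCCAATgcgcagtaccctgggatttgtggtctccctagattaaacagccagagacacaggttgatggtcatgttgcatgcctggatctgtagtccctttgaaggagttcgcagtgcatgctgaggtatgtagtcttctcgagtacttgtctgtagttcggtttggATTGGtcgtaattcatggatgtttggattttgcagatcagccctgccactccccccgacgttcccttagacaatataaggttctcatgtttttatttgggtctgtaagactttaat
USP5: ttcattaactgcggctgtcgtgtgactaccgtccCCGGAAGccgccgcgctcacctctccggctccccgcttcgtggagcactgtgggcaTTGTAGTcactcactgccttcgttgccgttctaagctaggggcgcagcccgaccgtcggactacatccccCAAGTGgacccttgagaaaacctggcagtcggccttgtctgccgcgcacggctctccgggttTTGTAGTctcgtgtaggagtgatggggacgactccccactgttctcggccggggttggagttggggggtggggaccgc

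Over all members the median width was 100 bp (interquartile range 100 to 200), and most members at Wnt target genes were also 100 or 200 bp wide. For 7 of these genes a member with no base in an annotated UTR is shown, 1 per gene, because the study's interest lay in these genes. The member of AXIN2, the feedback inhibitor of Wnt signalling, lay at chr17:63558101-63558200 and holds TATAAA and GGGCGG. The upstream member of MET, the receptor of hepatocyte growth factor, lay at chr7:116312001-116312100 and holds GGGCGG. Those of CD44, a cell surface glycoprotein and stem cell marker, at chr11:35161601-35161700 and of BMP4, a TGF-β family ligand, at chr14:54420701-54420800 each hold CCAAT. Those of EFNB2, an ephrin ligand, at chr13:107188801-107189000, of MSL1, a scaffold of a histone acetyltransferase complex, at chr17:38279801-38280000 and of PPARD, a nuclear receptor, at chr6:35310001-35310200 hold matches to CANNTG. None of these 7 stretches holds CTTTGAT, the letters of the TCF/LEF site, which says only that these letters are not there.
AXIN2: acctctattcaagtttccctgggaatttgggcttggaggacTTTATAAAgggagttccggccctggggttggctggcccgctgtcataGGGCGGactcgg
MET: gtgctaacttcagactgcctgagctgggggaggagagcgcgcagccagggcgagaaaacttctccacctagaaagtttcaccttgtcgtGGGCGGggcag
CD44: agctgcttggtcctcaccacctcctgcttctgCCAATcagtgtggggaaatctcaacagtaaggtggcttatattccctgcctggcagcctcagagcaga
BMP4: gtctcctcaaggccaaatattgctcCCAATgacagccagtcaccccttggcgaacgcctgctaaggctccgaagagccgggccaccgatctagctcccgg
EFNB2: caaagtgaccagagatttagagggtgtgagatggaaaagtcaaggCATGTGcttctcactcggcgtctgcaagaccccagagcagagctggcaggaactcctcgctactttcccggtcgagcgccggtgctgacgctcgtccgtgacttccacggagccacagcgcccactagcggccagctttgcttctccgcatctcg
MSL1: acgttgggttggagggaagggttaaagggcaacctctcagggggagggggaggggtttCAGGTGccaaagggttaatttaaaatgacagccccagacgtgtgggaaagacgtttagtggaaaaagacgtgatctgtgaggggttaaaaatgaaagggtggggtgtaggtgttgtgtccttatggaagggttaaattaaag
PPARD: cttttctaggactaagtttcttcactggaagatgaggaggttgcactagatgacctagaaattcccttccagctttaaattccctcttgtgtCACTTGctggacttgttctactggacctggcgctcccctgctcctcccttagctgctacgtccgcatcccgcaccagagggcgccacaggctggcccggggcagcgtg

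At most promoters with a KDM3B region in HCT116/Scrsh, the call was lost. In all, 4425 KDM3B regions of HCT116/Scrsh lay at a promoter, and 3419 of them (77.3%) overlapped no region of HCT116/ABsh-1. The same held for 74.3% of all KDM3B regions of HCT116/Scrsh. Of the 3419 lost promoter regions, 3067 (89.7%) had no H3K9me2 region of HCT116/ABsh-1 within 1 kb, and 352 had one. Over all 17638 KDM3B regions this share was 88.5%. The 1006 promoter regions that were kept comprised 885 without H3K9me2 within 1 kb and 121 with it. These shares are fixed by the rule and are given as a description.

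The limits of the rule did not fall in a gap of the data. At 900 and 800 bases from the nearest H3K9me2 region, just inside the excluded range, lay 39 and 35 lost promoter regions, and at 1000 and 1100 bases, just inside the member range, lay 35 and 34. Only 14 lost promoter regions overlapped an H3K9me2 region outright. Between 900 and 1000 bp from a TSS lay 59 members, and 65 regions that met the other conditions lay between 1000 and 1100 bp. For 177 members a KDM3B region of HCT116/ABsh-1 began in the very next 100-bp window, and for 65 more it lay 100 bases away. In all, 279 members (9.10%) had one within 300 bp and 444 (14.5%; 13.3 to 15.8%) within 1 kb. On the other side of this limit, 512 of the 885 kept regions without H3K9me2 overlapped their counterpart by a single 100-bp window.

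The score that the authors gave each region, which ranks regions within a list and whose definition the paper does not give, differed between lost and kept regions. Members had a median score of 21 (interquartile range 13 to 38, highest 188), and kept promoter regions had a median of 53 and reached 688. The median member stood at the 44.3rd percentile of the HCT116/Scrsh list, and the median kept region at the 80.2nd. A single 100-bp window made up 51.4% of members and 22.96% of kept regions, and the widest member spanned 900 bp. When the promoter regions were divided by score into 4 groups of about equal size, 95.2% of the lowest group were lost (93.8 to 96.3%), then 85.1%, 77.8%, and 50.1% of the highest group (47.1 to 52.99%). The members numbered 961, 816, 776 and 514 in these groups. Even among the promoter regions with the highest scores, then, about as many lost their call as kept it.

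**Figure D1:**
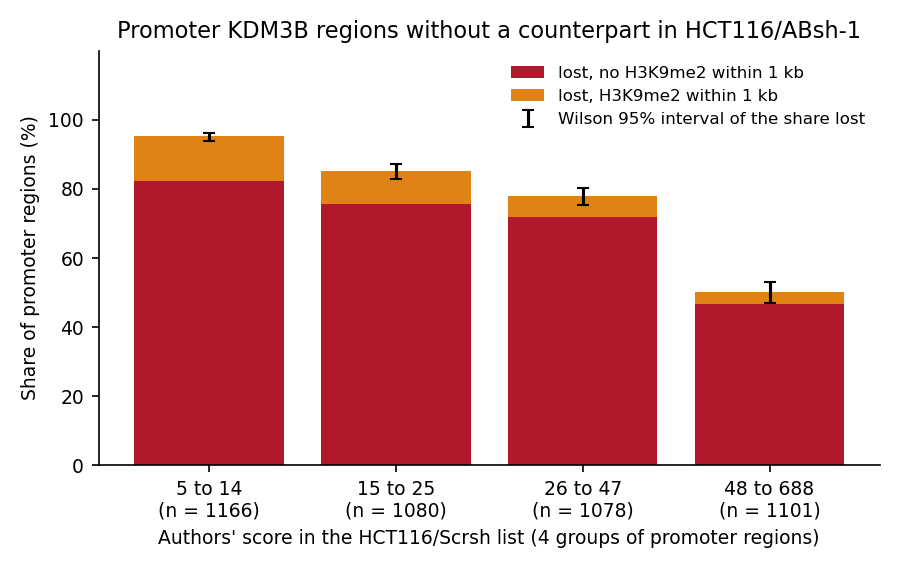
Share of promoter KDM3B regions of HCT116/Scrsh (y axis, percent) that overlapped no KDM3B region of HCT116/ABsh-1, in 4 groups by the authors' score (x axis), split into regions without (red, the members) and with (orange) an H3K9me2 region of HCT116/ABsh-1 within 1 kb. Error bars are Wilson 95% intervals of the share lost, which falls from 95.2% in the lowest to 50.1% in the highest score group.

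Among the 12 members with the highest scores were promoters of genes of RNA handling, transcription and respiration. The highest score, 188, belonged to an 800-bp region at DDX5, an RNA helicase of transcription and splicing (chr17:62502301-62503100), centred 44 bp downstream of the TSS in the untranslated part of an exon. The nearest KDM3B region of HCT116/ABsh-1 lay 8600 bases away and the nearest H3K9me2 region 34600. A score of 182 was given to the 700-bp member of PPRC1, a coactivator related to PGC-1 (chr10:103892301-103893000), 100 bp upstream of its TSS, with H3K9me2 10700 bases away. These 2 promoters thus had wide, high-ranking KDM3B calls and no H3K9me2 region within 10 kb.

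ELOC (elongin C) followed with 155, ATP5MC1, which encodes the c subunit of ATP synthase, and TAF12, a subunit of the general factor TFIID, with 153 each, and POLQ (DNA polymerase theta) with 151. HSP90B1, the HSP90 chaperone of the endoplasmic reticulum, had the widest member of all (chr12:104323401-104324300, 900 bp, score 150) and its nearest H3K9me2 region 208100 bases away. CD164, a sialomucin, and VIRMA, a subunit of the RNA m6A methyltransferase complex, also scored 150. ITGA3 (integrin α3) and PPOX, an enzyme of haem synthesis, scored 140, and PDCD11, a factor of ribosomal RNA processing, scored 139. The POLQ member is a borderline case, since a KDM3B region of HCT116/ABsh-1 lay 400 bases from it, whereas for CD164 the distance was 321900 bases.

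Most genes had a single member. Of the 3279 genes, 2958 had 1 member, 289 had 2 and 32 had 3 or more, and 547 members lay within 1 kb of the TSSs of at least 2 genes. TGIF1, a homeobox corepressor of TGF-β signalling, had 5 members with scores from 11 to 51, spread over its alternative promoters. HMGN4, a nucleosome-binding protein, and ANXA2, a calcium-dependent membrane-binding protein, had 4 each, and ZFP36L1, an RNA-binding protein of mRNA decay, and PRIM2, a DNA primase subunit, had 3 each. Another promoter region was kept at 171 member genes. At 2719 member genes (82.9%) no KDM3B region of HCT116/ABsh-1 was centred within 1 kb of any TSS, so that for them the promoter lost KDM3B calls altogether.

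Members sat close to the TSS, mainly just upstream. Their centres lay a median of 133.5 bp from the nearest TSS, and 62.2% (60.5 to 63.9%) were upstream of it. The 100 bp before the TSS held 788 centres (25.7%) and the 100 bp after it 503 (16.4%). For kept regions the median distance was 110 bp with 70.3% upstream (67.4 to 73.0%), and for lost regions beside H3K9me2 it was 201.5 bp with 61.7% upstream. By annotation, 1039 member centres (33.9%) lay outside protein-coding genes, 1003 (32.7%) in an intron, 848 (27.7%) in the untranslated part of an exon and 177 (5.77%) in a coding exon.

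**Figure D2:**
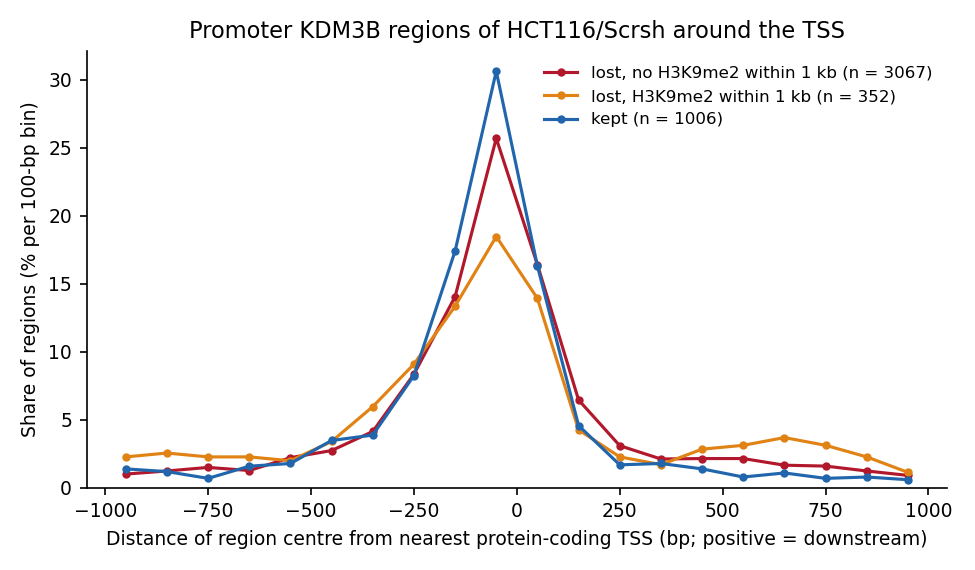
Distance of region centres from the nearest protein-coding TSS (x axis, bp, negative upstream) against the share of regions per 100-bp bin (y axis, percent), for members (red, n = 3067), lost promoter regions beside H3K9me2 (orange, n = 352) and kept promoter regions (blue, n = 1006). All 3 curves peak in the 100 bp before the TSS, which hold 25.7% of members.

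Most members, but not all, lay in CpG-rich DNA. In the 300 bp around each member centre, the median GC content was 60.7% and the median ratio of observed to expected CpG was 0.745. Over all protein-coding promoters both medians were higher, at 65.3% and 0.800. Windows with GC above 50% and a CpG ratio above 0.6, taken here as CpG-rich, made up 68.2% of members (66.5 to 69.8%), which is close to the 68.0% of all protein-coding promoters, measured in windows set at the members' median position relative to the TSS. Kept regions were CpG-rich in 75.9% (73.2 to 78.5%) and lost regions beside H3K9me2 in 46.6% (41.4 to 51.8%). From the lowest to the highest score group, the CpG-rich share of members was 61.5, 68.75, 71.8 and 74.5%, and that of kept regions was 87.5, 75.8, 79.5 and 73.3%. The intervals of members and kept regions were apart in the lowest group (58.4 to 64.5% and 76.4 to 93.8%) and overlapped in the other 3.

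Some members had TSSs on both strands nearby, whatever the orientation of the gene pair. Protein-coding TSSs on both strands stood within 1 kb of 16.1% of members (14.9 to 17.5%) and 15.5% of kept regions, against 13.0% of all promoters, 9.28% of promoters without a KDM3B region of HCT116/Scrsh and 6.53% of lost regions beside H3K9me2 (4.39 to 9.61%).

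Short motifs were counted in the same windows. CCGGAAG, the core letters of ETS sites, stood in 18.0% of member windows (16.7 to 19.4%), 17.2% of kept windows and 13.7% of all promoter windows, but in 6.82% of lost windows beside H3K9me2 (4.62 to 9.94%). CCAAT, bound by NF-Y, stood in 36.9% of members (35.2 to 38.6%), 33.1% of kept regions and 33.9% of all promoters. GGGCGG, the GC box bound by SP factors, stood in 53.3% of members (51.6 to 55.1%), 57.6% of kept regions (54.5 to 60.6%) and 62.2% of all promoters. TATAAA, the TATA box, stood in 5.25, 5.77 and 8.39% of these. These letters are a description of the DNA and do not show which factor was bound.

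TGAGTCA, the AP-1 site, stood in 4.96% of members (4.24 to 5.78%), 4.87% of kept regions, 3.27% of all promoters and 9.38% of lost regions beside H3K9me2 (6.75 to 12.9%). CTTTGAT, the letters of the TCF/LEF site through which β-catenin reaches Wnt target genes, was rare at promoters. It stood in 2.48% of members (1.98 to 3.09%), 1.79% of kept regions and 1.68% of all promoters. Away from promoters it stood in 5.60% of lost and 4.48% of kept KDM3B regions. CACGTG, the E-box of MYC and related factors and itself a match to CANNTG, stood in 10.0% of members, 10.2% of kept regions, 9.94% of lost regions beside H3K9me2 and 8.15% of all promoters. CANNTG stood in 67.9, 71.1, 76.7 and 62.8% of these, so its share in members was the lowest among the 3 classes of promoter KDM3B regions. The cAMP response element TGACGTCA was in 2.19% of members, 1.59% of kept regions and 2.61% of all promoters, and GCGCATGC, the NRF1 site, in 2.93, 3.48 and 4.02%.

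Next, H3K9me2 of the control cells was examined. In HCT116/Scrsh, none of the 3067 members had an H3K9me2 region within 1 kb (0%, upper bound 0.125%) and 50 had one within 5 kb (1.63%; 1.24 to 2.14%). Because the rule clears members of H3K9me2 in HCT116/ABsh-1, which also removes places that had the mark in both cell populations, they were set beside places cleared in the same way, a comparison added after seeing the data. Of 885 kept regions clear within 1 kb in HCT116/ABsh-1, 0 had H3K9me2 of HCT116/Scrsh within 1 kb (upper bound 0.432%) and 1.24% (0.695 to 2.21%) had it within 5 kb. Of 14506 clear promoters, 35 (0.241%) had it within 1 kb and 2.42% (2.18 to 2.68%) within 5 kb. The intervals of members and kept regions overlapped.

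In HCT116/ABsh-1, where the list of H3K9me2 regions was far longer, the nearest one lay a median of 19700 bases from a member (interquartile range 4950 to 63700), whereas in HCT116/Scrsh the median was 109300. Beyond the 1 kb that the rule cleared, 10.2% of members had H3K9me2 within 2 kb, 25.01% (23.5 to 26.6%) within 5 kb, 37.3% within 10 kb and 69.8% within 50 kb. For kept regions that were also clear within 1 kb, the shares were 12.2%, 24.9% (22.1 to 27.8%), 38.4% and 72.1%. For all promoters clear within 1 kb they were 10.1%, 21.0% (20.3 to 21.7%), 30.8% and 61.1%. The intervals of members and kept regions overlapped, and from 5 kb outwards both had H3K9me2 nearby more often than promoters at large.

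The absence of H3K9me2 can be set against other promoters by taking all lost promoter regions, before the H3K9me2 condition. Of these, 10.3% (9.32 to 11.4%) had an H3K9me2 region of HCT116/ABsh-1 within 1 kb, against 12.03% of kept promoter regions (10.2 to 14.2%) and 29.8% of promoters without a KDM3B region of HCT116/Scrsh (29.1 to 30.6%). GC content moved with the shares of lost regions and of promoters without KDM3B. Below 55% GC the lost regions stood at 6.995% and promoters without KDM3B at 9.80%, between 55 and 65% GC at 10.1% and 34.1%, and above 65% GC at 13.4% and 37.1%. Kept regions stood at 11.2, 10.35 and 14.4% in these GC ranges. By CpG content, the share was 7.27% of CpG-rich and 16.2% of other lost regions. For kept regions it was 10.7 and 16.1%, whereas for promoters without KDM3B it was 31.5 and 26.95%. Within score groups, from lowest to highest, H3K9me2 lay beside 13.4, 11.2, 7.51 and 6.72% of lost regions and beside 19.6, 18.6, 13.0 and 8.91% of kept regions. In each group, then, the lost regions had it no more often than the kept ones. No library was replicated, so whether these shares would recur was not tested.

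**Figure D3:**
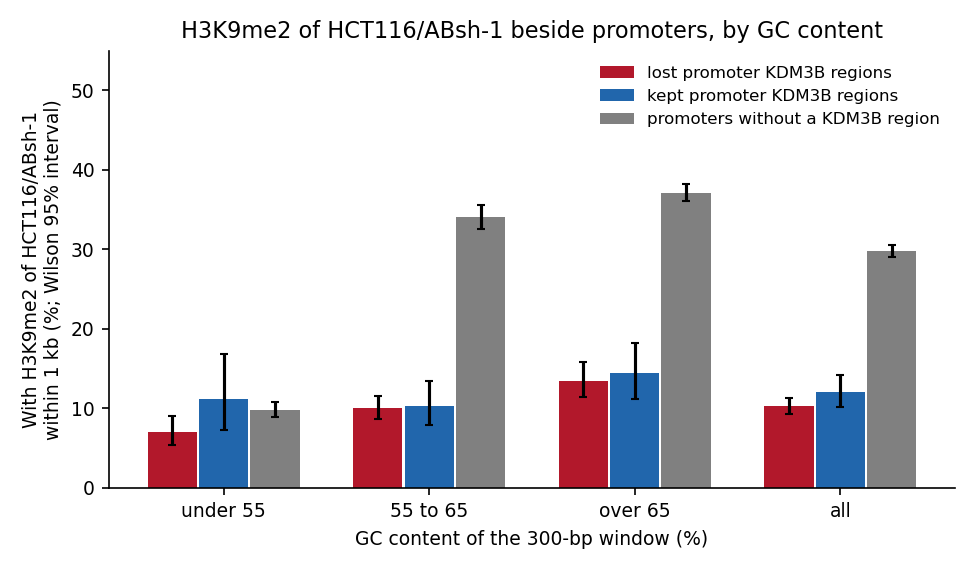
Share of places with an H3K9me2 region of HCT116/ABsh-1 within 1 kb (y axis, percent, with Wilson 95% intervals), by GC content of the surrounding 300 bp (x axis), for lost promoter KDM3B regions (red), kept ones (blue) and protein-coding promoters without a KDM3B region of HCT116/Scrsh (grey). Over all GC contents the shares are 10.3, 12.03 and 29.8%.

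Inside the genes, H3K9me2 was common although the rule had cleared 1 kb around each member. An H3K9me2 region of HCT116/ABsh-1 lay somewhere in 1305 of the 3279 member genes (39.8%; 38.1 to 41.5%), against 48.0% of genes with a kept promoter region and no member (44.9 to 51.1%) and 53.1% of genes without a KDM3B promoter region (52.3 to 53.9%). In HCT116/Scrsh the shares were 9.33, 11.2 and 17.5%. The rule clears 1 kb around each member, and so acts on member genes only. The count was therefore repeated more than 2 kb from the canonical TSS, which gave 37.6% (36.0 to 39.3%), 44.02% and 44.7%.

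When the genes of all 3 groups were also required to have no H3K9me2 within 1 kb of that TSS, the shares were 35.5% (33.9 to 37.2%), 37.8% (34.6 to 41.1%) and 34.7% (33.8 to 35.6%). With the promoter condition made equal, the intervals of member genes overlapped those of both other groups. Genes whose lost promoter regions all lay beside H3K9me2, a class that the mark itself defines, stood at 89.1% (85.2 to 92.2%) anywhere in the gene, and 42 of the 56 with a clear canonical TSS (interval 62.3 to 84.5%) had it beyond 2 kb. Member genes had a median length of 31394 bp. Among those shorter than 10 kb with a clear canonical TSS, 23.04% (19.8 to 26.6%) had the mark beyond 2 kb. Genes with a kept promoter region stood at 20.6% (15.1 to 27.55%) and genes without a KDM3B promoter region at 15.3% (14.0 to 16.7%). Length was not matched within this bin, where the median was 5516.5 bp for member genes and 4246 bp for genes without a KDM3B promoter region. Between 30 and 100 kb the 3 shares were 34.0% (31.2 to 37.0%), 36.0% (30.9 to 41.5%) and 39.3% (37.6 to 41.0%).

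**Figure D4:**
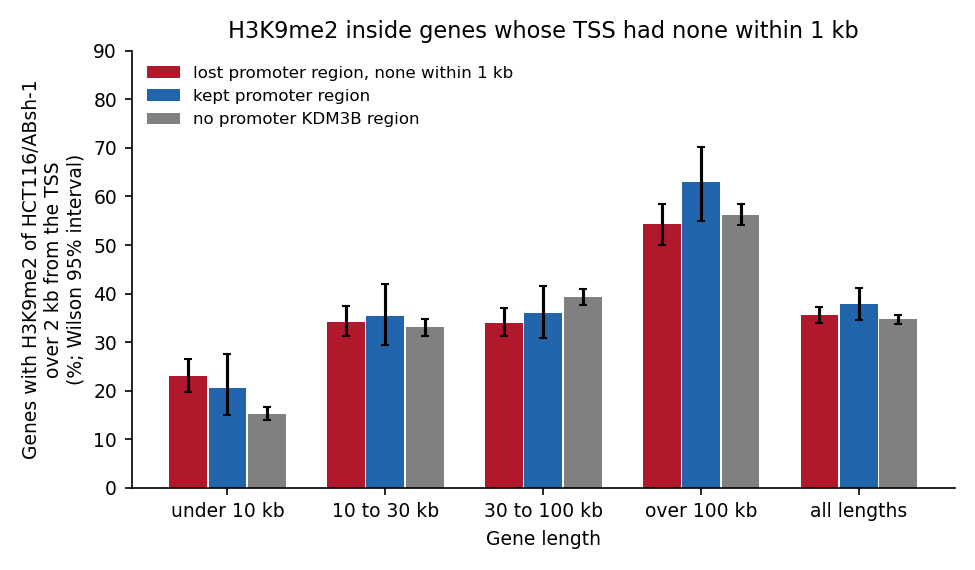
Share of genes with an H3K9me2 region of HCT116/ABsh-1 more than 2 kb from the canonical TSS (y axis, percent, with Wilson 95% intervals), by gene length (x axis), among genes with no such region within 1 kb of that TSS. Member genes are red, genes with a kept promoter region blue and genes without a KDM3B promoter region grey, and over all lengths the shares are 35.5, 37.8 and 34.7%.

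The Wnt target genes of the study were then examined one by one. Of the 31 genes, 14 had a promoter KDM3B region in HCT116/Scrsh, and 12 (38.7%; 23.7 to 56.2%) were member genes, whereas 16.6% of all protein-coding genes were member genes and 23.1% had a promoter KDM3B region. With the HCT116/Scrsh list cut to the length of the HCT116/ABsh-1 list, the count of Wnt target genes with a member was 7. Without a member but with a promoter KDM3B region, FGF18, a fibroblast growth factor, and FOSL1, an AP-1 subunit, had 1 kept region each. Since the study chose these genes for their link to β-catenin and the members were chosen by measured values, the count is a description. From ChIP-seq views and ChIP-qPCR, the paper reports more H3K9me2 on AXIN2, DKK1, CCND1 and MYC after the depletion. It also reports a higher average H3K9me2 signal within 5 kb of the TSSs of the 31 genes. Below, only called regions are counted, so a gene without a call is not shown to lack the mark.

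The highest score among the Wnt target genes belonged to DKK1, a secreted Wnt antagonist, whose 400-bp member (chr10:54073701-54074100, score 72) was centred 140 bp upstream of the TSS. A KDM3B region of HCT116/ABsh-1 lay only 100 bases from it, and H3K9me2 lay 5000 bases away. EDN1, the vasoconstrictor endothelin-1, had a 300-bp member of score 50 at its TSS, with the nearest KDM3B region of HCT116/ABsh-1 315400 bases away and H3K9me2 1600 bases away. CCND1, the G1 cyclin D1, had a single-window member of score 11 (chr11:69455901-69456000) 23 bp upstream of the TSS, with H3K9me2 4200 bases away and 200 bases of the mark in the gene. JAG1, a Notch ligand, had a member of score 29 and also 200 H3K9me2 bases in the gene.

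AXIN2 had 2 promoter regions, both lost, of which 1 lay beside H3K9me2. The other is the member printed above, with a score of 18, and H3K9me2 lay 2100 bases from it. The AXIN2 gene held 2800 bases of H3K9me2 in HCT116/ABsh-1, the most among the 12 genes. MYC, the transcription factor and proto-oncogene, had 4 promoter regions, all lost, of which 3 were members with scores of 13, 36 and 11 and 1 lay beside H3K9me2, and the gene held 100 bases of the mark. MET and BMP4 had 2 members each. MET, BMP4, CD44, DKK1, EDN1, EFNB2 and MSL1 had no H3K9me2 region in the gene at all, and PPARD had 200 bases. Thus the mark was called within 5 of the 12 genes, where 39.8% of all member genes held it. AXIN2 and MYC, with the most and the least of the mark among the 5, each also had a lost promoter region outside the member set.

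Of the KDM3 family, KDM3A and JMJD1C were member genes, whereas KDM3B itself had no promoter KDM3B region in HCT116/Scrsh. KDM3A, the other demethylase aimed at by the shRNA, had a 400-bp member of score 75 (chr2:86668001-86668400), centred 277 bp downstream of a TSS in an intron, with no KDM3B region of HCT116/ABsh-1 nearer than 253900 bases and no H3K9me2 nearer than 126000. JMJD1C, the third family member, had a single-window member of score 20. Other H3K9 genes with a member were SETDB2, a methyltransferase of the SETDB family, UHRF1, a reader that links histone and DNA methylation, and CBX3 and CBX5, which encode HP1 proteins, for 6 of the 31 genes of that list (19.4%; 9.19 to 36.3%), of which 2 had no KDM3B region of HCT116/ABsh-1 at the promoter. Among 24 β-catenin coactivators 7 were member genes (29.2%; 14.9 to 49.2%), including TBL1X (score 68), RUVBL1 (43), CHD8 (37) and BCL9L (25), a relative of the β-catenin partner BCL9. Among 22 genes of H3K4 methyltransferase complexes there were 6 (27.3%; 13.2 to 48.2%), including BOD1 and KMT2D. Of 53 Wnt pathway components 11 were member genes (20.8%), among them the kinase GSK3A with a score of 77 and the ubiquitin ligase receptor BTRC with 74. The intervals of all 4 lists include the 16.6% of all protein-coding genes.

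Cytosolic ribosomal protein genes and splicing factors had the highest shares of member genes among the 24 lists examined. The ribosomal protein genes led with 51 of 89 (57.3%; 46.9 to 67.1%), including RPS26 (score 125) and RPS18 (94). Splicing factors followed with 30 of 61 (49.2%; 37.1 to 61.4%), including DDX5, RBM39 (116), HNRNPH1 (85) and SRSF7 (84). Mitochondrial ribosomal protein genes stood at 30 of 78 (38.5%), led by MRPL24 (134), and respiratory chain and ATP synthase genes at 28 of 87 (32.2%). Proteasome genes stood at 14 of 39 (35.9%). H3K9me2 of HCT116/ABsh-1 lay in none of these 14 genes and in 3 of the 30 mitochondrial ribosomal protein genes. Over all member genes it lay in 39.8%, and gene length was not matched here. Most of these genes with a promoter KDM3B region were member genes, as were 71.6% of all genes with one. The share was 86.4% for cytosolic and 78.9% for mitochondrial ribosomal protein genes, 77.8% for respiratory chain genes and 68.2% for splicing factors (30 of 44), and 14 of 20 for proteasome genes.

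Lists of growth control and transcription also had shares above that of all genes. Cell cycle regulators stood at 25 of 61 (41.0%; 29.5 to 53.5%), among them the kinases CDK7 (score 62) and CDK4 (61), the retinoblastoma relative RBL2 (60) and the CDK inhibitor CDKN2B (53). Genes of hypoxia and glycolysis stood at 14 of 39, epithelial junction genes at 13 of 38, RAS and PI3K signalling genes at 19 of 61, and RNA polymerase II and general transcription factor genes at 15 of 49, including POLR2A, the largest subunit of the polymerase, with 106. Mediator subunits stood at 9 of 31, DNA repair genes at 19 of 72 and p53 and apoptosis genes at 10 of 40. The intervals of the Mediator and p53 lists reach down to the 16.6% of all genes. Among genes with a promoter KDM3B region, 71.6% were member genes over all genes. The share was 86.2% for cell cycle, 81.8% for Mediator and 81.25% for epithelial junction genes, and 19 of 25 for RAS and PI3K genes. It was 71.4% for the polymerase and p53 lists, 70.4% for DNA repair and 14 of 20 for hypoxia and glycolysis, about as over all genes.

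Near the average were ZNF zinc finger genes with 98 of 508 (19.3%; 16.1 to 22.95%) and solute carrier genes with 58 of 371 (15.6%; 12.3 to 19.7%). Other histone demethylases had 2 of 14 and TGF-β and BMP signalling genes 4 of 34, namely ID1 (score 109), SMAD3 (63), ID3 (40) and SMAD7 (15). None of 390 olfactory receptor genes, which are expressed mainly in olfactory neurons, was a member gene (0%, upper bound 0.975%), and only 2 of them had a promoter KDM3B region in HCT116/Scrsh. Histone genes stood out among the lists in another way. Of 68, 34 had a promoter KDM3B region, 27 had a kept one and 12 had a member, and only 2 of these 12 had no KDM3B region of HCT116/ABsh-1 at the promoter. Member genes made up 35.3% of the histone genes with a promoter region, against 71.6% over all genes and 85.7% of Wnt target genes.

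**Figure D5:**
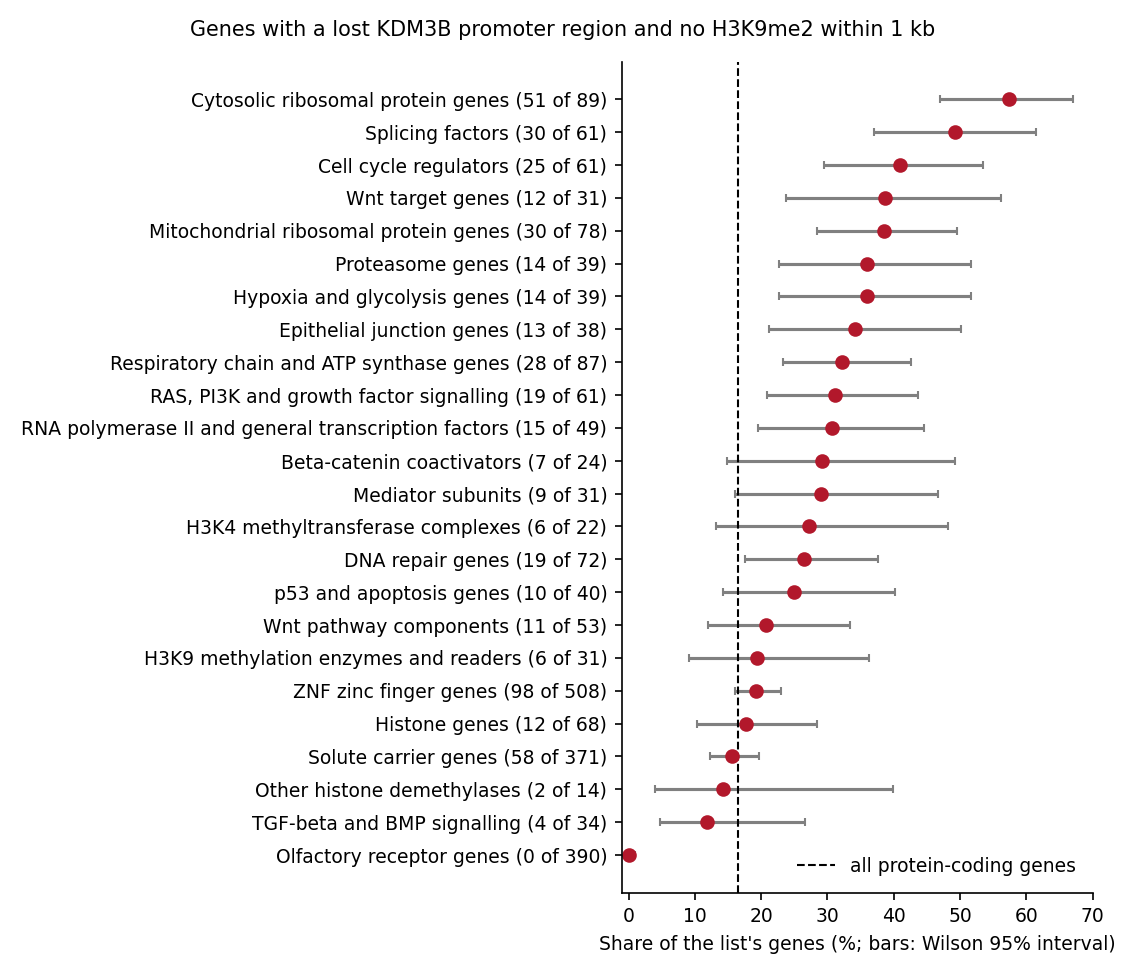
Share of each list's genes with a member at the promoter (x axis, percent) for 24 gene lists (y axis), with Wilson 95% intervals. The dashed line is the 16.6% of all protein-coding genes, and cytosolic ribosomal protein genes lie farthest above it at 57.3%.

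Across the chromosomes, the share of protein-coding genes that were member genes was highest on chromosome 12 (20.9%; 18.5 to 23.5%) and chromosome 19 (20.1%) and lowest on the X chromosome (8.47%; 6.79 to 10.5%) among chromosomes with any member. On the X chromosome 70 of its 80 promoter regions were members (87.5%), against 69.3% of promoter regions over all chromosomes. No promoter KDM3B region was called on the Y chromosome.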

How the data were processed

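KDM3B and H3K9me2 ChIP-seq of HCT116/Scrsh and HCT116/ABsh-1 cells gave 4 lists of regions, from 1 library each. As the paper's methods and the submitters' processing notes say, reads were aligned to hg19 by Bowtie, duplicates at a position were collapsed and 100-bp windows were compared with input by a Poisson model. For a significant peak the paper also asked for 2 neighbouring windows that were equally significant. A single 100-bp window made up 51.4% of members, so how this condition applied to the lists is not known. The lists deposited by the authors give each region's position and a whole-number score, which served here only for ranking within a list. Their depth is unknown, so no interval covers it, and the 2 input libraries were not analysed here.

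Regions were overlapped with each other and with the protein-coding transcripts of GENCODE release 44 lifted to hg19 (19794 genes), whereas the study used RefSeq. A gene counted as a member gene when a member centre lay within 1 kb of one of its TSSs, and a region was named after the nearest TSS. GC content, CpG ratio and motifs were read from hg19 in 300-bp windows. The H3K9me2 shares within 1 kb for promoters without KDM3B were measured from 100-bp windows placed 40 bp upstream of each canonical TSS, the median position of members. Shares carry Wilson 95% intervals. With 1 library per condition, no test between conditions was made. The rule was checked on simulated regions. Python 3.11.15, pandas 2.3.3 and statsmodels 0.14.6 were used.

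The members and gene lists were chosen with earlier results of these data known. The named genes are those of the 12 highest-scoring and 5 widest members, the 5 genes with the most members, the Wnt target genes with a member and up to 4 genes per list by score, of which 1 is not reported here. SETDB2, CBX3, CBX5, FGF18 and FOSL1 were named in addition, after their values were seen, to complete short counts. Sequences were taken from high-scoring members and Wnt target genes with no UTR base, at most 300 bp wide and not on chromosome 8, whose sequences were not used here. Alternatives were other limits on the TSS and H3K9me2 distances, shortened lists, canonical transcripts and merged regions.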

Additional observations from a re-analysis of the deposited data

How the results depend on the processing

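The number of members lay between 2300 and 3501 under other limits on the TSS distance (500 bp or 2 kb) and on the H3K9me2 distance (500 bp, 2 kb or 5 kb), with the H3K9me2 list shortened, with KDM3B regions within 1 kb counted as kept, with canonical transcripts and with merged regions, against 3067 in the report. It depended on the length of the KDM3B list of HCT116/Scrsh. Cut to the 8046 regions with the highest scores, as many as in HCT116/ABsh-1, the list gave 1252 members at 1473 genes, 7 of them Wnt target genes, and cut to its highest-scoring 50% it gave 1390 members at 1631 genes, 7 of them Wnt target genes.

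The share of member genes with H3K9me2 in the gene, 39.8% in the report, was 38.0% and 42.3% with TSS limits of 500 bp and 2 kb. It was 42.3%, 34.9% and 27.3% with H3K9me2 limits of 500 bp, 2 kb and 5 kb. With the KDM3B list of HCT116/Scrsh cut to 8046 regions it was 38.0%, and with canonical transcripts 35.9%. It was 43.1% when members were chosen with the H3K9me2 list of HCT116/ABsh-1 cut to the 11645 of HCT116/Scrsh. In that setting the mark in the gene was still counted from the uncut list, so the share does not show how the mark in genes depends on list length. The counts made only beyond 2 kb from the canonical TSS, 37.6% and, with that TSS clear, 35.5%, were added after seeing the data. A wider H3K9me2 limit removes genes with the mark by its construction. The narrower limit and the cut H3K9me2 list admit genes near the mark in the same way. The cause of the other shifts was not tested. No paired analysis was possible because there was 1 library per condition. For the same reason no replicate could be left out.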

Other observations

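The letters ACTACAA, part of the site bound by ZNF143, were searched after the printed sequences had been seen. They stood in 126 of 3067 member windows (4.11%; Wilson 95% interval 3.46 to 4.87%), 2.98% of kept promoter windows (2.10 to 4.23%), 2.84% of lost promoter windows beside H3K9me2 and 2.70% of all promoter windows (2.48 to 2.94%). The match is a description of the DNA, chosen on these sequences, and was not tested.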
